A study of Caenorhabditis elegans with 36 samples.

Results

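Small RNAs mapping to the proteasome subunit genes of *C. elegans* are described here across all libraries of a HRDE-1 immunoprecipitation experiment. The genes were taken by symbol, as the listed subunits of the 20S core particle and of the 19S regulatory particle, and each symbol was joined to its WormBase gene ID. The rule used no measured values, but the set was chosen with earlier results of these data known. All 31 were found among the 31106 genes counted. They comprise 7 alpha subunits (*pas-1* to *pas-7*) and 7 beta subunits (*pbs-1* to *pbs-7*) of the 20S core, 11 non-ATPase subunits of the 19S particle (*rpn-1*, *rpn-2*, *rpn-3*, *rpn-5*, *rpn-6.1*, *rpn-7*, *rpn-8*, *rpn-9*, *rpn-10*, *rpn-11* and *rpn-12*) and its 6 ATPase subunits (*rpt-1* to *rpt-6*). All 31 passed the filter on low counts in every comparison.

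The proteasome degrades proteins that have been marked with ubiquitin. Its barrel-shaped 20S core is built from outer rings of alpha subunits, which gate the entry, and inner rings of beta subunits, some of which cut the substrate. The 19S particle binds the ubiquitin chain, removes it and feeds the unfolded protein into the core with its ring of ATPases. Every cell uses this machine, and the germline and early embryo of the worm depend on it for meiosis and the turnover of maternal proteins. HRDE-1 is a nuclear Argonaute of the germline that is guided by small RNAs made on target transcripts and is known for heritable silencing. Small RNAs made on genes that are expressed in the germline are known to be bound mainly by another Argonaute, CSR-1. No list of CSR-1 targets was applied to the proteasome genes.

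All 6 strains carried a tagged *hrde-1* on chromosome III, hrde-1(tor125[GFP::3xFLAG::hrde-1]), which is the only change in the strain called wild-type. The *hrde-2* strain also carried hrde-2/enri-3(qe20) V, the *simr-1* strain simr-1(cmp36) I and the *mut-2* strain mut-2(ne298) I. The *mut-2; hrde-2* strain combined mut-2(ne298) I with hrde-2/enri-3(qe20) V. The *simr-1 mut-2* strain combined simr-1(cmp36) with another *mut-2* allele, mut-2(cmp306) I, so that it and *mut-2* also differ in the allele of *mut-2*. About 100000 hermaphrodites per replicate were collected as 1-day-old adults, 68 h after L1 arrest at 20 °C, and RNAs of 18 to 30 nt were cloned from the whole-worm lysate (input) and from the anti-FLAG immunoprecipitate (IP). There were 3 biological replicates per strain and fraction, and 36 libraries in all. Whole animals were used, so fewer cells of a tissue and fewer small RNAs per cell cannot be told apart. The fusion is tagged at the *hrde-1* gene itself, and the strains hold no untagged control for the IP.

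Counts on genes ranged from 4276687 to 10307879 in the inputs and from 8207541 to 17449202 in the IPs. The smallest count of any proteasome gene in any library was 73 (*pbs-6* in a wild-type IP), so none was near the counting limit. Levels are given in RPM, the usual unit for the share of a library's counts on genes that 1 gene took. A higher share in 1 library does not measure more molecules. Genes of structural RNAs (rRNA, tRNA, snRNA and snoRNA) took 8.31% to 34.9% of the input counts, most of all in *mut-2*, and 1.17% to 3.19% of the IP counts. Tables from wild-type replicate 2, *hrde-2* replicate 1 and all strains with a *mut-2* mutation carry a suffix in their names that the others lack. What the suffix marks is not given, and values within each suffix class are printed beside the results it touches.

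In the wild-type input, the proteasome genes together took 1946, 2653 and 1953 RPM in replicates 1, 2 and 3. Replicate 2 was the highest. The mean was 2184 ± 407 RPM (SD, n = 3). The input sum of *hrde-2* was 2262 ± 102 RPM and that of *simr-1* was 2469 ± 223 RPM (SD, n = 3 each), and both overlapped with wild-type. The input sum of *hrde-2* was 1.04 ± 0.198 times that of wild-type. This ratio was 0.817 within the libraries with the name suffix (1 of each strain) and 1.19 within those without it (2 of each). Its direction turned between these classes, but the only wild-type library with the suffix is the high replicate 2. An effect of the suffix and that of this library cannot be told apart. The input sum of *simr-1*, which has no library with the suffix, was 1.13 ± 0.234 times that of wild-type and 1.27 times that of the wild-type libraries without the suffix. In the IPs the strains separated. The wild-type IP held 689, 833 and 761 RPM, below each of the wild-type inputs. The *hrde-2* IP held 7563, 7817 and 7658 RPM, above each of the *hrde-2* inputs and 10.1 ± 0.967 times the wild-type IP (ratio of means with propagated SD). The ratio of IP to input within a lysate was 0.354, 0.314 and 0.390 in wild-type and 3.49, 3.47 and 3.23 in *hrde-2*.

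**Figure D1:**
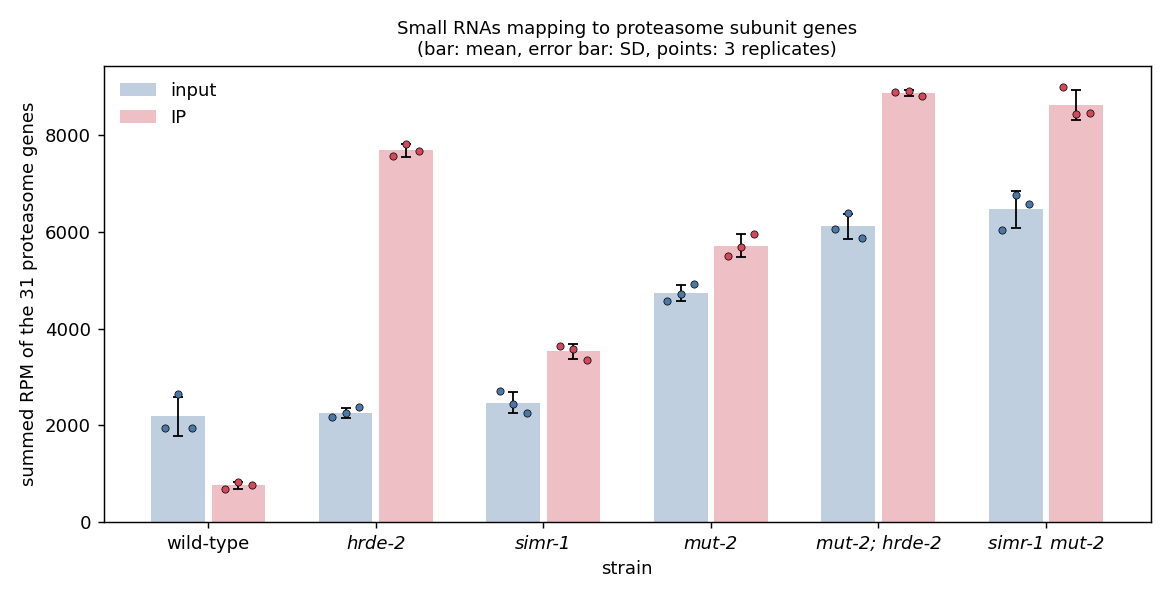
Summed RPM of the 31 proteasome genes (y axis) in input and IP of the 6 strains (x axis), with the bar as the mean, the error bar as the SD and the points as the 3 replicates. The wild-type IP is the lowest group at 761 RPM and the *mut-2; hrde-2* IP has the highest mean at 8859 RPM.

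Among themselves the proteasome genes differed most simply by level. Per kilobase of exon, the scale on which genes of different length can be compared, the wild-type input ran from 19.5 RPM per kb to 124, or 6.38 times, with a median of 43.3. The medians per subunit group were 53.1 RPM per kb for alpha, 43.6 for beta, 34.8 for non-ATPase and 31.2 for ATPase subunits, and the ranges of the 4 groups overlapped. The genes with the highest and lowest RPM of each group are given below in every replicate, with their level per kb.

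Among the alpha subunits, which form the gated outer rings, *pas-5* had wild-type input values of 68.7, 79.1 and 61.6 RPM, or 81.6 ± 10.3 RPM per kb. *pas-3* had 29.3, 43.4 and 32.3 RPM, or 33.4 ± 7.03 RPM per kb (SD, n = 3 each). Per kb these genes differed by more than their spread. Among the beta subunits, *pbs-5*, which encodes the subunit with chymotrypsin-like activity, had 117, 160 and 118 RPM, or 124 ± 23.3 RPM per kb, the highest of all 31. *pbs-4*, a beta subunit gene without a catalytic site, had 28.3, 27.8 and 29.3 RPM, or 35.5 ± 0.975 RPM per kb. *rpn-9*, which encodes a subunit of the 19S lid, followed *pbs-5* at 123 ± 25.7 RPM per kb, a difference within the spread of the replicates.

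In the 19S particle *rpn-2*, which encodes a large scaffold subunit, had 216, 296 and 201 RPM in the wild-type input, or 75.8 ± 16.3 RPM per kb. *rpn-8*, whose product pairs with the deubiquitinase RPN-11, had 22.5, 28.1 and 21.6 RPM, or 19.5 ± 2.86 RPM per kb, the lowest of all 31. Their levels per kb did not come near each other. Among the ATPases, the motor of the particle, *rpt-4* had 75.9, 107 and 82.1 RPM, or 59.3 ± 11 RPM per kb. *rpt-6* had 27.8, 39.3 and 26.5 RPM, or 21.9 ± 4.95 RPM per kb, which does not differ from *rpn-8* beyond the spread. In *rpn-2*, *rpn-8*, *rpt-4* and *rpt-6* alike, replicate 2 was the highest.

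The first comparison asked which small RNAs HRDE-1 held in wild-type animals. Of the 31 proteasome genes, 21 were lower in the IP than in the input, none was higher and 10 were not called. A gene was called when it changed 2-fold or more and its adjusted p in edgeR's quasi-likelihood test was 0.05 or less. Of all 14477 genes tested, 25.2% were called lower. The median log2 change of the proteasome genes was -1.24, against 0.15 over all genes. The difference between these medians was -1.39 and did not move to 2 decimals with scaling by library size or by counts outside structural RNA genes, which shifted the median of all genes to -0.20 and -0.39. With those scalings 27 and 29 proteasome genes were lower, beside 34.2% and 38.4% of all genes, and higher calls made up 34.9% and 25.04% of all calls in place of 53.6%.

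The lowest value belonged to *pbs-6*, a beta subunit gene. Its inputs stood at 26.5, 46.9 and 28.6 RPM and its IPs at 4.49, 6.76 and 7.46 RPM. Its log2 change was -2.09 ± 0.28 (SE, adjusted p = 0.000395, edgeR's quasi-likelihood test). *rpt-4* had 21.5, 22.9 and 20.9 RPM in the IPs, all below its inputs, and a log2 change of -1.67 ± 0.16. *rpn-2* had 61.8, 86.1 and 71.6 RPM in the IPs and a log2 change of -1.34 ± 0.20. All of these genes were lower in every IP than in every input, as were 43.4% of the 14477 genes tested.

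The 10 genes that were not called lower in wild-type were *pas-4*, *pbs-4*, *rpn-3*, *rpn-5*, *rpn-10*, *rpn-12*, *rpt-1*, *rpt-2*, *rpt-5* and *rpt-6*. The ATPase subunits had 2 of 6 called, against 6 of 7 alpha, 6 of 7 beta and 7 of 11 non-ATPase subunits. All but *pbs-4* (adjusted p = 0.0732) and *rpt-6* (adjusted p = 0.875, both edgeR's quasi-likelihood test) passed the p-value threshold and fell short of 2-fold. In 30 proteasome genes every IP lay below every input, as in 43.4% of the 14477 genes tested. *rpt-6* was the only proteasome gene whose inputs and IPs overlapped, with 28.1, 21.4 and 22.4 RPM in the IPs. Its log2 change was -0.03 ± 0.18, and it turned positive, 0.12 without replicate 2 and 0.11 without the filter on low counts.

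**Figure D2:**
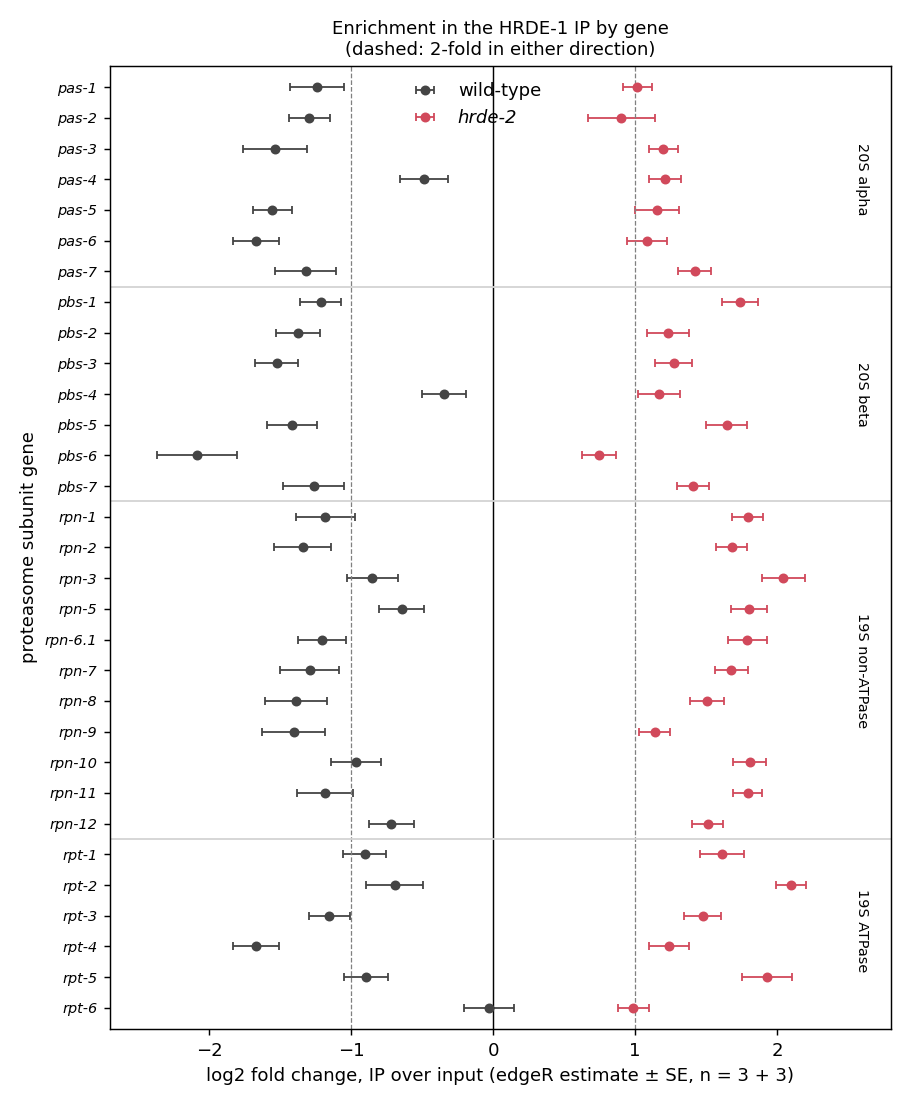
Log2 fold change of IP over input (x axis, edgeR estimate ± SE, 3 IP and 3 input libraries) for each of the 31 proteasome genes (y axis, by subunit group) in wild-type (grey) and *hrde-2* (red), with dashed lines at 2-fold. All wild-type estimates lie below 0, from -2.09 to -0.03, and all *hrde-2* estimates above it, from 0.74 to 2.10.

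In *hrde-2* the order of IP and input was turned. Of the 31 proteasome genes, 28 were called higher in the *hrde-2* IP over its input and none was lower, while 28.5% of all 12841 genes tested were called higher. The median log2 change was 1.48, or 2.78-fold, against -0.34 over all genes. The difference from the median of all genes was 1.82, and 1.80 and 1.81 with scaling by library size and outside structural RNA genes. Count and median were lower whichever replicate was left out. The filter on low counts stayed the same in these fits with fewer libraries. Genes tested fell to 10756, 10924 and 11305 without replicates 1, 2 and 3, and the part of the filter was not tested. The count was 18 without replicate 1, 18 without replicate 2 and 24 without replicate 3, beside 23.6%, 21.3% and 26.4% of all genes, with proteasome medians of 1.18, 1.07 and 1.32. Relative to all genes these medians were 1.27, 1.22 and 1.41, and without the filter on low counts the value was 2.551.

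All 11 non-ATPase subunits were called higher in *hrde-2*, with a median log2 change of 1.79, as were 5 of 6 ATPase subunits at a median of 1.54. Alpha and beta subunits were called in 6 of 7 cases each, with medians of 1.16 and 1.27. *rpt-2*, which encodes another ATPase of the 19S motor, had the largest change, 2.10 ± 0.10 on the log2 scale (adjusted p = 9.64e-07). *rpn-3*, a lid subunit gene, followed at 2.04 ± 0.15 (adjusted p = 3.81e-06, both edgeR's quasi-likelihood test).

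*pas-2*, *pbs-6* and *rpt-6* were not called in *hrde-2*, at log2 changes of 0.90 ± 0.24, 0.74 ± 0.12 and 0.99 ± 0.11. Their adjusted p-values were 0.00639, 0.000392 and 3.72e-05 in edgeR's quasi-likelihood test, so the fold and not the p-value kept them out. *pas-2*, an alpha subunit gene, had 49.1, 74.1 and 62.0 RPM in the *hrde-2* inputs and 100, 154 and 148 RPM in the IPs. Replicate 1 was the lowest in both fractions. *pbs-6* had 41.1, 33.5 and 37.3 RPM in the inputs and 72.5, 73.9 and 73.2 RPM in the IPs. The IPs of both genes exceeded all of their inputs, as they did for 43.3% of the 12841 genes tested.

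**Figure D3:**
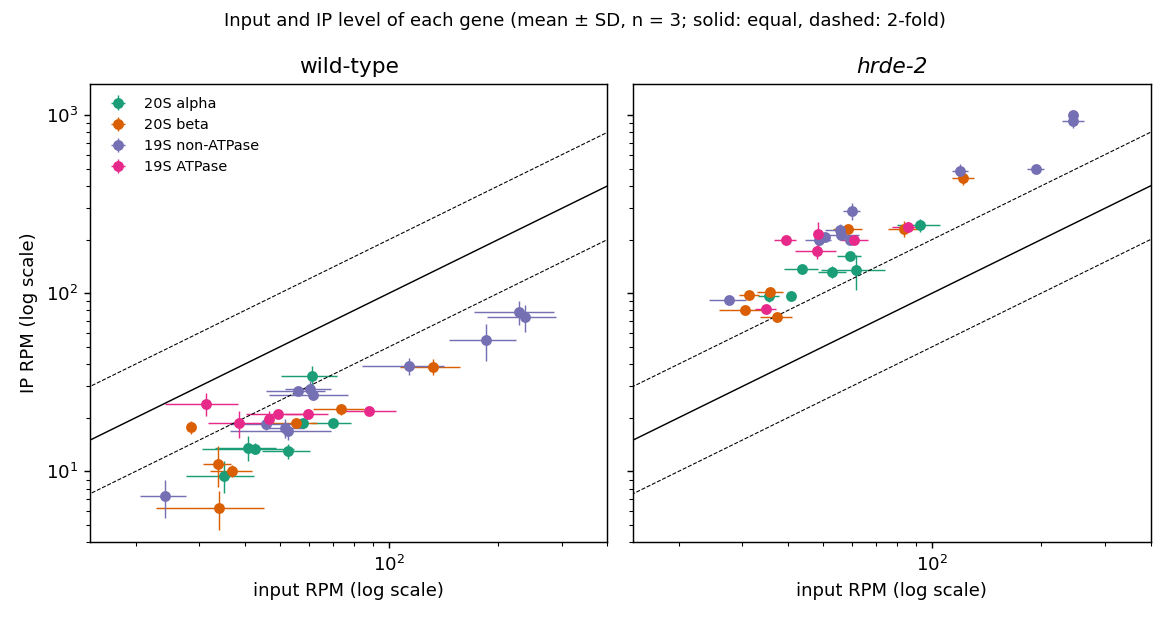
Mean IP RPM (y axis, log scale) against mean input RPM (x axis, log scale) of each proteasome gene in wild-type and *hrde-2*, with SD bars (n = 3) and colours for the subunit groups. Relative to the solid line of equal levels, the genes lie below it in wild-type and above it in *hrde-2*, at like input levels.

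The difference in enrichment between strains was tested as an interaction of strain and fraction. Between *hrde-2* and wild-type all 31 proteasome genes were called, each with higher enrichment in *hrde-2*, beside 33.7% of the 15444 genes tested. The log2 differences ran from 1.37 to 3.41 with a median of 3.10, which is 8.60-fold, and the median of all genes was -0.07. All 31 stayed called without any 1 replicate, with both other scalings, with DESeq2 and with the replicate number as a block. A fit of all 36 libraries with a term for the name suffix kept 30. The share of 33.7% belongs to the main fit, and those of the other fits are not given here. In the IP libraries alone, every proteasome gene had all 3 *hrde-2* values above all 3 wild-type values, as did 42.8% of the 13654 genes with enough counts. The ratio of mean IP RPM ran from 3.38 to 12.9 with a median of 10.3. Within the libraries without the name suffix the summed IP level was 10.7 times that of wild-type (2 libraries of each strain) and within those with it 9.08 times (1 of each).

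The largest difference belonged to *pbs-5*, the gene of the chymotrypsin-like subunit. Its IPs stood at 34.6, 38.7 and 42.7 RPM in wild-type and at 404, 483 and 447 RPM in *hrde-2*, far apart. Its inputs were 114, 120 and 131 RPM in *hrde-2*, within the range of wild-type or just below it. The log2 difference in enrichment was 3.41 ± 0.25 (adjusted p = 2.53e-08, edgeR's quasi-likelihood test). *rpn-2* had 1010, 883 and 876 RPM in the *hrde-2* IPs and a difference of 3.37 ± 0.24. *rpn-6.1*, which encodes a lid subunit known from worms with extended lifespan, had IP values of 15.1, 18.9 and 18.7 RPM in wild-type and of 204, 229 and 242 RPM in *hrde-2*. Its log2 difference was 3.34 ± 0.23.

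The smallest differences belonged to *rpt-6*, *pbs-4* and *pas-4*. In the *hrde-2* IPs *rpt-6* had 82.9, 79.4 and 80.8 RPM and a difference of 1.37 ± 0.22 (adjusted p = 6.58e-05). *pbs-4* had IP values of 17.2, 16.5 and 19.2 RPM in wild-type and of 77.7, 80.1 and 82.8 RPM in *hrde-2*. Its difference was 1.86 ± 0.22 (adjusted p = 3.32e-06, all edgeR's quasi-likelihood test). *pas-4*, an alpha subunit gene, rose from IP values of 31.2, 39.9 and 31.7 RPM in wild-type to 160, 163 and 160 RPM in *hrde-2*. The difference was 2.05 ± 0.22. These genes had less depletion in wild-type than most others, at -0.03, -0.35 and -0.49 on the log2 scale.

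Counting took no account of strand, and an exon of 11 of the 31 genes lies over another gene on the opposite strand, where reads of both cannot be told apart. *rpt-6* (chromosome III, 12370456 to 12372625, plus strand, 3 exons) overlaps *glrx-5*, and *pbs-4* (chromosome I, 3908747 to 3909701, plus strand, 4 exons) overlaps *mrrf-1*, in the coordinates of the deposited tables (WormBase annotation WS258, per the study's methods). In wild-type *glrx-5* stood at 53.3 ± 7.96 RPM in the IP, above its input of 23.1 ± 3.70 RPM (SD, n = 3 each), and in *hrde-2* its IP was at 39.2 ± 4.73 RPM. The IP of *mrrf-1* was at 4.97 ± 0.0722 RPM in wild-type and at 9.16 ± 0.824 RPM in *hrde-2*. *pas-4* (chromosome I, 8727214 to 8728497, minus strand, 4 exons) has no overlap. The part of overlapping reads in single values was not tested. Over the genes with and without an overlap the medians were close, -1.29 and -1.23 for wild-type IP against input, 1.27 and 1.51 for *hrde-2*, and 3.12 and 3.08 for the difference in enrichment.

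SIMR-1 is a Tudor domain protein of the germ granule compartment in which HRDE-2 is also found. In the *simr-1* IP the proteasome genes took 3648, 3578 and 3353 RPM, between wild-type and *hrde-2* and overlapping with neither. The mean was 4.63 ± 0.482 times that of wild-type, and 4.86 times that of the 2 wild-type libraries without the name suffix. None of the 31 genes was called in either direction between IP and input of *simr-1*, beside 30.0% of the 13711 genes tested. Higher calls made up 28.1% of all calls, and 48.0% by library size. The fitted median was 0.18 on the log2 scale, against -0.01 over all genes. Of the 31 genes, 18 passed the p-value threshold below 2-fold, a count not made over all genes. The largest log2 changes were 0.78 ± 0.09 for *rpt-2* and 0.65 ± 0.09 for *rpn-3*. *pbs-6* had the lowest, -0.62 ± 0.12 (adjusted p = 0.00123, edgeR's quasi-likelihood test), with 34.1, 33.4 and 29.5 RPM in the IPs.

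Against wild-type, 24 of 31 proteasome genes had higher enrichment in *simr-1* and none lower, beside 9.3% of the 15524 genes tested. The median log2 difference was 1.20, against -0.64 over all genes. This comparison moved with scaling. The median of all genes became 0.22 by library size and 0.19 outside structural RNA genes, higher calls made up 90.3% and 89.3% of all calls in place of 29.6%, and 30 proteasome genes were called with each, beside 26.6% and 25.8% of all genes. Relative to all genes the median was 1.84, 1.85 and 1.85. The 7 genes not called were *pas-1*, *pas-2*, *pas-4*, *pbs-4*, *rpn-5*, *rpn-12* and *rpt-6*. *pbs-5* again had the largest difference at 1.54 ± 0.19 (adjusted p = 0.000108), and *rpt-6* had -0.23 ± 0.18 (adjusted p = 0.318, both edgeR's quasi-likelihood test), which turned positive with both other scalings, at 0.66 and 0.61. In IP RPM, all 31 genes had every *simr-1* value above every wild-type value, as did 40.8% of the 13886 genes with enough counts. The comparisons of *hrde-2* and *simr-1* share the wild-type libraries, and the strains were not tested against each other.

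**Figure D4:**
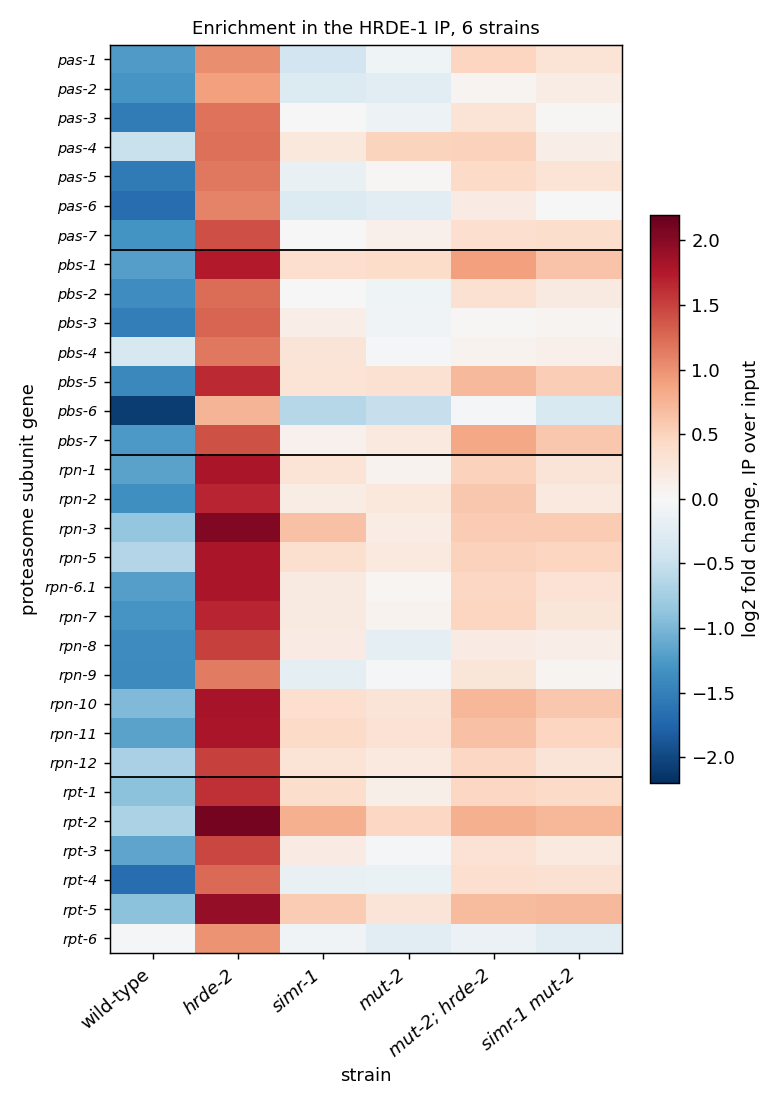
Log2 fold change of IP over input (colour, edgeR estimate) for each proteasome gene (rows, by subunit group) in the 6 strains (columns). Wild-type is blue for nearly all genes and *hrde-2* red for all of them, while the other strains stay within 1 log2 unit of 0.

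MUT-2 is a nucleotidyltransferase needed to make the small RNAs that HRDE-1 is known to hold. In the inputs of *mut-2* the proteasome genes took 4571, 4710 and 4910 RPM, above every wild-type input. The ratio of means was 2.17 ± 0.411, and 1.78 against the 1 wild-type library with the same name suffix. Only *rpn-8* was called higher in the *mut-2* input, at a log2 change of 1.10 ± 0.15 (adjusted p = 0.00015, edgeR's quasi-likelihood test), beside 11.1% of the 13558 genes tested. It had 64.4, 66.9 and 64.3 RPM in the *mut-2* inputs, above its wild-type inputs. The median log2 change over the proteasome genes was 0.78, against -0.01 over all genes. The p-value threshold was passed by 30 of 31, 29 of them short of 2-fold, a count not made over all genes.

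The count in the *mut-2* inputs depended on the scaling. With scaling by library size 23 proteasome genes were called higher, beside 24.6% of all genes, and outside structural RNA genes all 31 were, beside 39.0%. Higher calls made up 25.1% of all calls with the first scaling, 45.0% by library size and 58.6% outside structural RNA genes. Relative to all genes the median was 0.79, 0.79 and 0.80 with the 3 scalings. It was lower whichever replicate was left out, at 0.50 without replicate 1, 0.73 without replicate 2 and 0.50 without replicate 3. The filter on low counts stayed the same in these fits with fewer libraries, and its part was not tested. Structural RNA genes held 32.1% ± 2.38 of the *mut-2* input counts and 13.9% ± 4.53 of the wild-type ones (SD, n = 3 each). No gene was called without replicate 1 or without replicate 3, and the replicate block gave 4, beside 11.97% of all genes.

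The *mut-2* IP held 5498, 5684 and 5955 RPM on proteasome genes, every value above the *mut-2* inputs. The mean was 7.51 ± 0.77 times that of the wild-type IP, and 6.86 times the 1 wild-type library with the name suffix. That order depended on the scaling, since outside structural RNA genes the input sum was 6972 ± 155 RPM and the IP sum 5872 ± 216 RPM (SD, n = 3 each). None of the 31 genes was called between IP and input, beside 35.7% of the 12404 genes tested in either direction, and the median log2 change of 0.07 became -0.29 outside structural RNA genes, where higher calls made up 26.2% of all calls in place of 37.5%. Against wild-type, 29 of 31 proteasome genes had higher enrichment in *mut-2*, beside 28.3% of the 15628 genes tested. The median log2 difference was 1.71 and that of all genes 0.43. Relative to all genes it was 1.28, 1.28 and 1.27 with the 3 scalings, and outside structural RNA genes 21.2% of all genes were called higher and higher calls fell from 74.5% to 61.9% of all calls.

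The largest difference in *mut-2* was again that of *pbs-5*, 2.19 ± 0.21 (adjusted p = 4.52e-06), with 300, 329 and 348 RPM in the *mut-2* IPs. *pbs-4* and *rpt-6* were the genes not called, at 0.75 ± 0.17 (adjusted p = 0.00212) and 0.24 ± 0.20 (adjusted p = 0.364, all edgeR's quasi-likelihood test). The *mut-2* IPs of *pbs-4* were 62.4, 66.2 and 59.2 RPM and those of *rpt-6* 66.2, 66.0 and 57.9 RPM. The value of *rpt-6* turned negative outside structural RNA genes, at -0.033, and without replicate 2, at -0.010. In IP RPM every *mut-2* value exceeded every wild-type value for all 31 genes, as it did for 46.1% of the 14277 genes with enough counts.

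The double mutants had the highest sums. The *mut-2; hrde-2* IP held 8884, 8898 and 8794 RPM on proteasome genes and its inputs 6057, 6387 and 5875 RPM. The *simr-1 mut-2* IP held 8977, 8433 and 8444 RPM and its inputs 6037, 6759 and 6577 RPM. All of these lay above the corresponding *mut-2* libraries, by 1.55 ± 0.0632 and 1.51 ± 0.0816 times in the IP and by 1.29 ± 0.0719 and 1.37 ± 0.0934 times in the input (ratio of means with propagated SD). Both comparisons share the *mut-2* libraries. Structural RNA genes held 32.1% of the *mut-2* input counts, 18.8% in *mut-2; hrde-2* and 20.7% in *simr-1 mut-2*. Outside them the input sums lay closer together, at 6972 ± 155, 7517 ± 137 and 8144 ± 165 RPM in that order (SD, n = 3 each).

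None of the 31 genes was called between IP and input in either double mutant, beside 31.8% of 11260 genes in *mut-2; hrde-2* and 26.3% of 11558 in *simr-1 mut-2*. The median log2 changes were 0.46 and 0.29, against -0.06 and 0.01 over all genes. The p-value threshold was passed below 2-fold by 26 and 13 proteasome genes, a count not made over all genes. *pbs-1*, which encodes a catalytic beta subunit, had the highest value in *mut-2; hrde-2* at 0.90 ± 0.09 (adjusted p = 3.16e-07, edgeR's quasi-likelihood test). Its enrichment exceeded that in *mut-2* by 0.50 ± 0.15 (adjusted p = 0.0124 in the same test). The difference in enrichment from *mut-2* was not called for any gene, beside 23.2% of 12901 genes for *mut-2; hrde-2* and 10.9% of 13174 genes for *simr-1 mut-2*. It was positive for all 31 genes in *mut-2; hrde-2*, with a median of 0.41 and 24 genes past the p-value threshold. In *simr-1 mut-2* it was positive for 22 genes, with a median of 0.09. The medians over all genes were -0.05 and -0.14. Positive differences and values past the p-value threshold alone were not counted over all genes. The gene past the threshold in *simr-1 mut-2* was *pas-4*, with lower enrichment at -0.50 ± 0.15 (adjusted p = 0.0436, edgeR's quasi-likelihood test). The direction in *mut-2; hrde-2* was not uniform by library size, where the lowest value was -0.085. In *simr-1 mut-2* against *mut-2*, higher calls made up 0.976% of all calls, and 13.5% outside structural RNA genes.

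Between inputs, no proteasome gene was called higher in *hrde-2* or *simr-1* against wild-type, beside 4.03% of 13782 genes and 1.19% of 13642 genes, and none was called lower. The medians were 0.20 and 0.27 on the log2 scale, against 0.01 and 0.07 over all genes. The p-value threshold was passed by 1 proteasome gene in each, a count not made over all genes. With scaling outside structural RNA genes the median in *hrde-2* became -0.04, and higher calls made up 18.0% of all calls in place of 28.7%. In *hrde-2* that gene was *pas-5*, at 0.57 ± 0.13 (adjusted p = 0.0215, edgeR's quasi-likelihood test), with inputs of 78.9, 95.6 and 103 RPM that overlapped narrowly with wild-type. Against *mut-2* no gene was called in the inputs of *mut-2; hrde-2* or *simr-1 mut-2*, beside 6.55% of 11384 genes and 10.5% of 11441 genes. Their medians were 0.08 and 0.12, and by library size higher calls made up 29.7% and 62.3% of all calls in place of 5.23% and 33.8%.

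HRDE-1 target genes were defined as called higher in the IP with a mean of at least 10 RPM there. By this rule no proteasome gene was a target in wild-type, where 17.3% of all genes tested were, and 28 were targets in *hrde-2*, where 26.5% of all genes were. None was a target in *mut-2*, *simr-1 mut-2*, *simr-1* or *mut-2; hrde-2*, in which 7.45%, 1.85%, 4.98% and 1.56% of all genes were. A minimum of 50 RPM gave the same counts of proteasome genes, and the share of all genes at that minimum was not counted.

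A list of 24 further genes of the ubiquitin and proteasome pathway was set beside the subunits. It includes *rpn-13* and *dss-1*, listed with receptors and proteasome-bound factors, so it is not fully apart from the complex. In the wild-type IP 6 of the 24 were lower than in the input, beside 25.2% of all genes, and none was higher. In *hrde-2* 19 were higher, beside 28.5% of all genes, and 1 was lower. The difference in enrichment between *hrde-2* and wild-type was called for 22, all higher in *hrde-2*, beside 33.7% of all genes. The median was 2.47 on the log2 scale. In *simr-1* and *mut-2* the difference was called for 7 and 21 of the 24, all higher than wild-type, beside 9.3% and 28.3% of all genes. *ubq-1*, the polyubiquitin gene, had IP values of 22.2, 29.2 and 23.5 RPM in wild-type and of 292, 284 and 295 RPM in *hrde-2*, with a log2 difference in enrichment of 3.27 ± 0.25. *cdc-48.1*, which encodes a segregase that extracts ubiquitinated proteins, had 91.9, 99.2 and 93.2 RPM and 616, 745 and 699 RPM, and a difference of 2.62 ± 0.22. *psme-3*, the gene of a proteasome activator, had 46.1, 64.9 and 53.5 RPM and 260, 357 and 347 RPM, and a difference of 2.40 ± 0.28. In each case the IPs of the strains were far apart.

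*ubq-2*, which encodes ubiquitin fused to a ribosomal protein, was the gene lower in the *hrde-2* IP, at -1.32 on the log2 scale, and it was lower in the IP of all 6 strains. Its IPs stood at 4.00, 7.83 and 6.29 RPM in wild-type and at 17.8, 13.8 and 16.8 RPM in *hrde-2*. The genes without a called difference between *hrde-2* and wild-type were *ecps-1*, a proteasome adaptor gene, at 0.39, and *rpn-6.2*, at 0.49. *rpn-6.2* is the paralog of *rpn-6.1*, and reads shared by near-identical stretches of such a pair would be uncertain. The same would hold for *ubq-1* and *ubq-2*, which both encode ubiquitin. In the *mut-2* inputs 5 of the 24 were higher, beside 11.1% of all genes, and *rpn-6.2* was lower, at -1.23 on the log2 scale.

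Subunits of other large complexes were compared as counts and medians only. The 11 genes of the translation initiation factor eIF3 had 4 lower in the wild-type IP (median log2 change -0.81) and 11 higher in the *hrde-2* IP (median 1.58), and the difference in enrichment was called for all 11 with a median of 3.07. Of the 78 cytosolic ribosomal protein genes, 72 were lower and 1 higher in the wild-type IP (median -2.28). In the *hrde-2* IP only 1 of them was higher and 14 were lower (median -0.54), while 66 had higher and 2 lower enrichment than in wild-type (median 2.07). In *simr-1* against wild-type, 3 of the 78 ribosomal protein genes and 9 of the 11 eIF3 genes had higher enrichment, beside the 24 of 31 proteasome genes. Of all genes tested, 25.2% were called lower in the wild-type IP. In the *hrde-2* IP 28.5% were higher, and 5380 of 12841 were lower. Higher enrichment than in wild-type was called for 33.7% in *hrde-2* and 9.3% in *simr-1*. The gene lists were set side by side and not tested against each other.

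**Figure D5:**
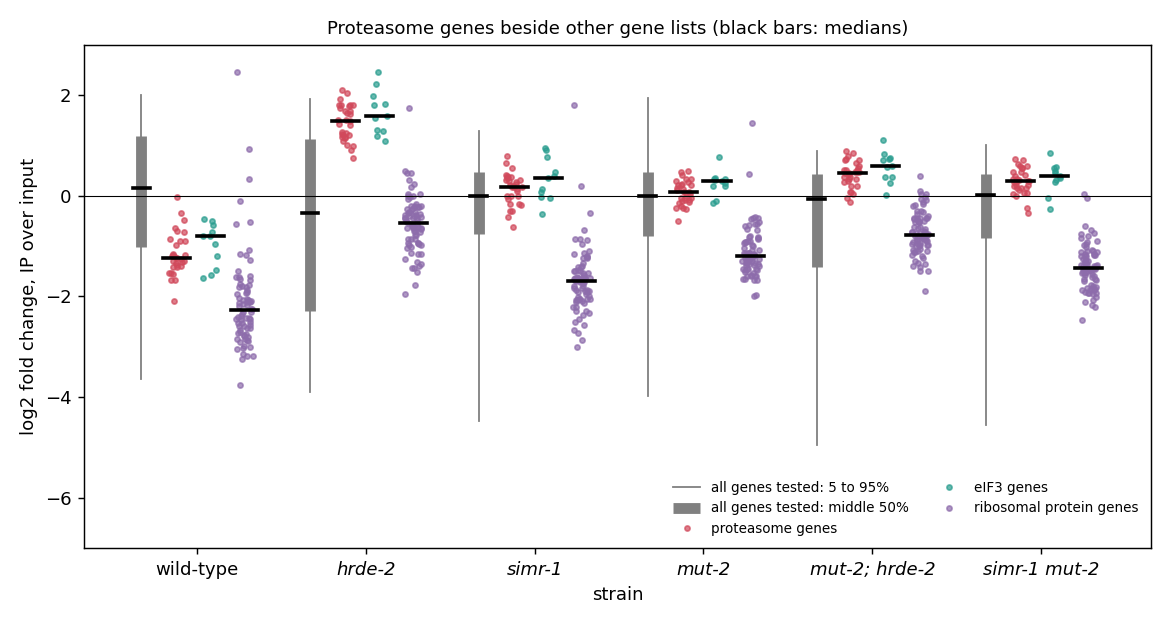
Log2 fold change of IP over input (y axis) in the 6 strains (x axis) for each proteasome, eIF3 and cytosolic ribosomal protein gene (points, with medians as black bars) and for all genes tested (grey bars from 5 to 95% and over the middle 50%). In *hrde-2* the proteasome median is 1.48, the eIF3 median 1.58 and the ribosomal protein median -0.54.

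Across the 31 genes the rank order of levels per kilobase was largely kept between fractions and between strains, as a description without a test. Spearman's rho was 0.81 between wild-type input and *hrde-2* IP, 0.76 between wild-type input and wild-type IP and 0.95 between wild-type and *mut-2* inputs (31 genes each, which share their exon lengths and the libraries of a group). The highest genes per kilobase in the *hrde-2* IP were *rpn-11*, the gene of the 19S deubiquitinase, at 442 RPM per kb and *pbs-5* at 420. The lowest was *rpt-6* at 56.9. The genes lie on chromosomes I (10), II (7), III (6), IV (3) and V (5), none is on the X, and their exon length ran from 801 to 3176 bases with a median of 1103. Levels not divided by length followed it weakly, with a rho of 0.34 in the wild-type input and 0.50 in the *hrde-2* IP.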

How the data were processed

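Small RNAs were sequenced from input and anti-FLAG IP of 6 strains with 3 replicates each. The authors removed adapters and low-quality reads with the FASTX-Toolkit, filtered out reads of the size standards with cutadapt 3.4, mapped with Bowtie2 2.5.0 and counted on exons with featureCounts (Subread 2.0.1). The deposited tables hold estimated counts, and per the file headers featureCounts was set to divide a read that overlapped several genes among them. A share of 10.4% of the values above 0 had decimals, and all values were rounded. No normalization had been applied. The label of wild-type replicate 2 was kept where the headers of its 2 tables carry another replicate number.

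Tests used R 4.3.3 and edgeR 4.0.16 with TMM. Genes needed 10 counts or more in 3 of the libraries compared, and p-values of the quasi-likelihood test were adjusted over all genes tested by the method of Benjamini and Hochberg. A call needed a fold of 2 and an adjusted p of at most 0.05. IP was tested against input within a strain, enrichment between strains as an interaction, and inputs between strains. RPM, ratios and plots were made with Python 3.11.15, numpy 2.4.6, pandas 2.3.3, scipy 1.17.1 and matplotlib 3.10.9. DESeq2 1.42.0, other scalings, filters and library sets were alternatives. The subunits and lists were chosen with earlier results of these data known. Values per replicate were given for the highest and lowest subunit of each group in the wild-type input, the 3 largest and 3 smallest differences between *hrde-2* and wild-type, and subunits not called where at least 25 were. For the pathway list they were given for *ubq-1*, *cdc-48.1* and *psme-3*, as the highest of their groups in wild-type input. They were also given for *ubq-2*, called against the others in the *hrde-2* IP. No receptor or proteasome-bound factor of the list was given in this way. *pbs-1*, *rpn-3*, *rpn-9*, *rpn-11* and *rpt-2* were named after their values were seen.

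Input and IP of a replicate number come from one lysate, and 15 of 18 correlations between their deviations exceeded 0.1. The main fits held no term for this pairing, and the replicate block was run as an alternative. Between strains 1 of 15 did so for inputs and 2 of 15 for IPs. On simulated data with 200 genes changed 4-fold, the wild-type IP test (14825 genes) recovered 198 with 4 false calls, the *hrde-2* interaction (15230 genes) 189 with 10, and the *mut-2* inputs (13479 genes) 198 with 3. The simulation raised and lowered equal numbers of genes and gave every gene the same dispersion. In the data many more were called, 4205 higher and 3645 lower in the wild-type IP. These recoveries therefore do not show how well the tests do on such data.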

Additional observations from a re-analysis of the deposited data

Results flagged for a closer look

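Enrichment of the proteasome genes in the HRDE-1 IP differed between strains by the test of the difference itself. It was called for 31 genes between *hrde-2* and wild-type, for 24 between *simr-1* and wild-type and for 29 between *mut-2* and wild-type, each time with higher enrichment in the mutant. Of all genes tested, 33.7%, 9.3% and 28.3% were called in that direction. The values for *simr-1* moved with scaling, to 30 genes beside 26.6% of all genes by library size. The 3 comparisons share the wild-type libraries. With 3 replicates a group, single libraries that stand apart were not searched for.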

How the results depend on the processing

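Of 466 alternative values for counts and summed levels, 427 kept their size, which for a count means within 1.5 times. Many of these counts were 0 in the main fit, and those that stayed 0 are among the 427. The count of genes higher in the *hrde-2* IP, and with it that of HRDE-1 targets, ran from 18 to 24 when 1 replicate was left out, beside 21.3% to 26.4% of all genes. Where no gene was called higher in the *simr-1* IP, 1 was by library size (also as a target), beside 17.2% of all genes, and 3 in a fit of all 36 libraries, with or without a term for the name suffix, beside 20.6% and 20.4%. In the *mut-2; hrde-2* IP the counts were 2 without the filter on low counts (also as targets), beside 2.89% of all genes, and 1 with both fits of all libraries, beside 3.64% and 3.61%. Genes higher in the *mut-2* inputs numbered 23 by library size, 31 outside structural RNA genes, 7 without the filter, 4 with the replicate block, 30 with both fits of all libraries, and 0 to 1 with 1 replicate left out. The shares of all genes were 24.6% and 39.0% with these scalings, 8.73% without the filter, 11.97% with the block, 33.004% and 33.7% with all libraries with and without the suffix term, and 2.76% to 7.70% with 1 replicate left out. The cause was not tested. The block changed no other count by more than 1.5 times.

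Summed over the 20 genes without overlap, levels were lower by construction. The input sums were 1487 RPM in wild-type, 1538 in *hrde-2*, 1684 in *simr-1*, 3219 in *mut-2*, 4422 in *simr-1 mut-2* and, for *mut-2; hrde-2*, 4152. The IP sums, with strains in that order, were 517, 5344, 2436, 3932, 5957 and 6160 RPM. Outside structural RNA genes the sums rose to 2479 and 7867 RPM for input and IP of *hrde-2*, to 7517 and 9008 for those of *mut-2; hrde-2*, and in the remaining inputs to 2977 for *simr-1*, 6972 for *mut-2* and 8144 for *simr-1 mut-2*.

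Of 660 alternative values of the subunits named by rule, 608 kept their direction and side of the threshold, 13 lost the call, 25 gained one and 14 changed sign, all of these for *rpt-6*. In the wild-type IP *rpt-6* became 0.11 without the filter, 0.12 without replicate 2 (from -0.25 to 0.12 with 1 replicate left out), and 0.16 and 0.17 with all libraries without and with the suffix term. For *simr-1* against wild-type it became 0.13 with DESeq2, 0.66 by library size, 0.61 outside structural RNA genes, and 0.28 and 0.26 with all libraries. For *mut-2* against wild-type it became -0.14 with DESeq2, -0.033 outside structural RNA genes, -0.010 without replicate 2 (from -0.010 to 0.29 with 1 replicate left out), and -0.18 and -0.19 with all libraries. Depth was not limiting, and intervals from counting would not cover the spread between replicates.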
